A study of Drosophila melanogaster with 32 samples.

Results

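The mitochondrial ribosomal protein (mRp) genes encode the proteins of the ribosome inside mitochondria, and are taken here as every gene of the deposited count table whose name starts with mRpL (large subunit) or mRpS (small subunit). They were 72 of 14161 genes, 46 mRpL and 26 mRpS. By name, 42 belong to families that bacterial ribosomes also have (mRpL1 to mRpL36, mRpS2 to mRpS21), and 30 belong to families specific to mitochondria. A few further proteins of this ribosome carry other names in the table (tko, bonsai and Rlc1) and are set beside the 72 genes below.

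RNA was sequenced from brains of Drosophila melanogaster larvae of instar 3, in 4 groups of 2 libraries, with 500 brains pooled for each preparation. The ato IP and ato input groups had the genotype ipcGal4, UASRpl10Ab::GFP; ato1, described in the labels as loss of function of ato, which encodes the proneural transcription factor Atonal. The wild-type IP and wild-type input groups carried the same driver and the same transgene without ato1, so every group expressed the GFP-tagged cytosolic ribosomal protein. An input library came from 10% of a homogenate and samples the whole brain, and an IP library came from what anti-GFP antibodies pulled down of the remainder. The tag is made where ipcGal4 drives it, and the series gives those cells as T4 and T5 neurons, which detect motion in the optic lobe. Nothing in the labels says how independently the preparations of a group were made, so p-values measure the spread between these preparations.

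Mitochondrial ribosomes translate the few proteins encoded in mitochondrial DNA, all of them subunits of the respiratory chain or ATP synthase in animals. Their RNA is encoded in that same DNA, whereas the mRp genes are nuclear: their mRNAs are read by cytosolic ribosomes, the kind that was tagged here, and the proteins are imported. Fly mutants of the mitoribosomal genes tko and bonsai are known for impaired respiration and slow growth.

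The 32 deposited columns were taken as 4 runs of each of 8 libraries, since those labelled L1 to L4 share a replicate number. The labels do not say this in words, and the n of 2 per group rests on it. The 8 libraries held 7780123 to 12238648 counts each, and a count of 3 in a library corresponds to 0.245 to 0.386 CPM (counts relative to the size of their library, with TMM factors). Markers of other cell types differed between the groups. Summed CPM of 9 muscle genes spanned 928 to 1863 in the ato IPs, 562 to 719 in the wild-type IPs, 292 to 531 in the ato inputs and 106 to 111 in the wild-type inputs, and all 9 were called higher in the IPs of both genotypes. The 8 factors of T4 and T5 neurons summed to 527 to 665 CPM in the ato IPs, 843 to 869 in the wild-type IPs, 405 to 449 in the ato inputs and 572 to 593 in the wild-type inputs. The 8 glial markers summed to 1289 to 1467, 817 to 832, 1263 to 1462 and 751 to 820 CPM in the same order of groups. Gs2 and nrv2 made up most of these sums, and the markers did not all move alike. For ato over wild type, 5 were above 0 and 3 below in the IPs, and 6 above and 2 below in the inputs. The 5 photoreceptor genes summed to 11.9 to 21.6, 72.3 to 83.5, 7.80 to 9.90 and 91.4 to 96.9 CPM. In the wild-type libraries gl made up most of this sum. The 6 neuronal markers summed to 929 to 1050, 975 to 1076, 699 to 858 and 710 to 799 CPM, and no marker of any list was at 0 in all libraries. The 5 neuroblast markers summed to 274 to 319, 288 to 317, 286 to 367 and 321 to 324 CPM. Sums of the 5 hemocyte markers were 202 to 216, 149 to 188, 185 to 196 and 111 to 147 CPM. Between the genotypes, 2 hemocyte markers were above 0 and 3 below in the IPs, and 5 above and 0 below in the inputs. The 5 fat body markers summed to 109 to 228, 32.8 to 125, 85.6 to 155 and 14.7 to 78.8 CPM. In the ato gene itself the libraries had 13.3 and 11.1 CPM in ato IPs, against 12.7 and 17.2 CPM in wild-type IPs, and 15.6 and 15 CPM in ato inputs, against 12.9 and 12.8 CPM in wild-type inputs. The label names an allele and no deletion of the transcript, so this level checks no label.

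Of the 72 mRp genes, 71 passed the filter on low counts. mRpL53, a large subunit gene on chromosome arm 2R, had 0 counts in all 8 libraries. In the dm3 annotation 100% of its exon bases also belong to AGO1 or CG33155, and the headers name no option that would count reads of overlapping genes. Another 38 genes shared exon bases with a neighbour, which for 37 of the 39 lay only on the opposite strand, and the counting used no strand. The share reached 15% in mRpS24 (58.9%, with CG6182), mRpL13 (28.9%, with CG10602), mRpL48 (21.2%, with frtz) and mRpL45 (16.5%, with loco), and stayed below 15% in the other 34.

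The mRp genes were short and compactly placed. The 71 genes tested had a median exon length of 744 bases, against 1980 bases over all 10224 genes tested. Exons overlapped those of another gene in 53.5% of the mRp genes, against 25.9% of all genes tested. A neighbour on the opposite strand started within 500 bases of the start of 43 of the 71 (60.6%), against 26.8% of all genes tested. The 72 genes were spread over every large arm, with 20 on 3R, 17 on 3L, 12 on 2L, 12 on 2R and 11 on X.

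mRp mRNAs were moderately abundant in the whole brain. In the wild-type inputs their median level per length was 57.5 CPM per kilobase of exon, against 13.4 over all genes tested, 15 for 43 other genes of mitochondrial gene expression, 157 for 68 nuclear genes of the respiratory chain and ATP synthase, and 1569 for 85 cytosolic ribosomal protein genes. The highest level per length was that of mRpS18A, one of the 3 fly genes related to bacterial protein S18, with 137.5 ± 10.5 CPM per kilobase (SD, n = 2). mRpL22, whose bacterial counterpart lines the tunnel through which a new protein leaves, had 135.5 ± 5.38 CPM per kilobase. These 2 genes did not differ beyond their spread, and mRpS21, mRpL27 and mRpL21 followed at 122.9 ± 3.51, 122.1 ± 7.44 and 121.3 ± 2.37 CPM per kilobase, also within their spread. The lowest was mRpS24 with 16.3 ± 2.56 CPM per kilobase, the gene with 58.9% shared exon bases. mRpL10, a protein of the stalk that recruits translation factors in bacteria, had 27.8 ± 2.11 CPM per kilobase, and mRpS18B, mRpL13 and mRpS29 had 30.7 ± 4.41, 30.9 ± 1.03 and 31.1 ± 5.97, which overlapped each other.

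Together the mRp genes took a smaller share of the counts in the tagged-ribosome RNA than in the whole brain. The share was 0.240% and 0.256% in the ato IPs, against 0.460% and 0.402% in the ato inputs. It was 0.199% and 0.232% in the wild-type IPs, against 0.394% and 0.371% in the wild-type inputs. Every IP lay below every input, and within each kind of RNA both ato libraries lay above both wild-type libraries. The median level per length over the genes also lay lower in every IP than in every input, with 33.8 and 36.8 CPM per kilobase in the ato IPs, 25.7 and 34.4 in the wild-type IPs, 75.7 and 62.8 in the ato inputs and 60.0 and 54.8 in the wild-type inputs, and the medians of the ato and wild-type IPs overlapped. In pooled tissue, fewer cells of a type and less RNA per cell cannot be told apart.

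**Figure D1:**
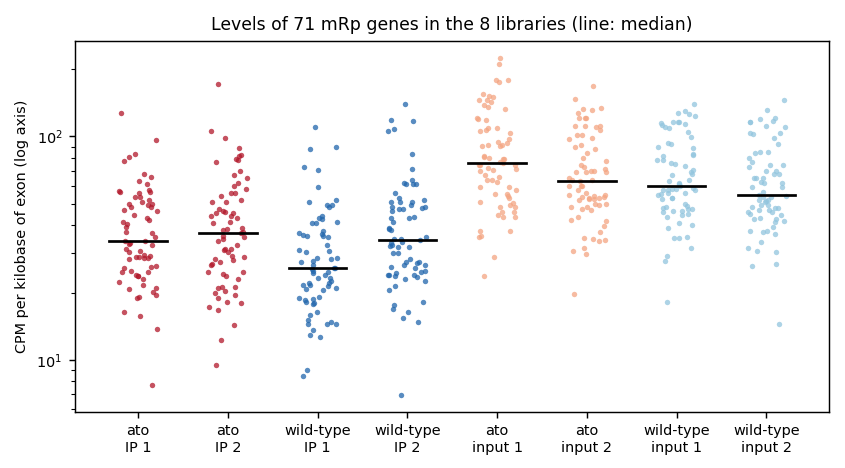
Level of each of the 71 mRp genes tested, in CPM per kilobase of exon on a log axis, in the 8 libraries; each point is a gene and the black line is the median of a library. The medians are 25.7 to 36.8 CPM per kilobase in the 4 IP libraries, all below the 54.8 to 75.7 of the 4 input libraries.

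In ato brains 55 of 71 mRp genes fell in the IPs relative to the inputs and 0 rose (edgeR quasi-likelihood test, adjusted p below 0.05 over all genes), while 16.3% of all genes tested were called lower and 11.9% higher. In wild-type brains 59 of 71 fell and 0 rose, while 18.4% of all genes tested were called lower and 17.3% higher. On the higher side 0 mRp genes had an unadjusted p below 0.05, and 0 were called by DESeq2 or limma-voom, in either genotype. The median log2 change of the mRp genes was -0.95 in ato and -0.97 in wild type, against 0.02 and 0.06 over all genes tested, and 69 and 70 of the 71 were below 0. The called genes were 1.51 to 4.43-fold lower in ato (log2 -0.59 to -2.15, adjusted p 7.52e-05 to 0.0475 by edgeR) and 1.43 to 3.84-fold lower in wild type (log2 -0.51 to -1.94, adjusted p 2.94e-05 to 0.0454 by edgeR). Both IP libraries lay below both inputs in 69 of 71 genes in ato, where 32.6% of all genes tested did, and in 67 of 71 in wild type, where 33.6% of all genes tested did.

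The number of calls moved with single libraries, while no mRp gene was called higher without any of them. In ato 31 mRp genes were called lower without ato input 1, where 9.20% of all genes tested were called lower. In wild type 38 were called lower without wild-type IP 1 and 34 without wild-type input 1, where 14.7% and 10.5% of all genes tested were called lower. Under all 19 alternative settings 28 of the 55 calls in ato and 29 of the 59 in wild type held. For all genes tested, calls that held under all settings were not counted. Some mRp calls also ended with all libraries kept, which the lists of left-out libraries below do not show. Muscle markers moved the other way between IP and input, with a median log2 change of 1.33 in ato and 2.37 in wild type. Their part in the lower CPM of the mRp genes was not tested.

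Genes of both subunits and of both kinds of family were among those that fell. Among large subunit genes 38 of 45 fell in ato with a median log2 change of -1.05, and 40 of 45 in wild type with a median of -1.0. Among small subunit genes 17 of 26 fell in ato with a median of -0.81, and 19 of 26 in wild type with a median of -0.87. Of the genes with bacterial families 33 of 42 fell in ato and 34 of 42 in wild type, with medians of -1.05 and -0.97, and of the mitochondria-specific ones 22 of 29 and 25 of 29, with medians of -0.92 and -0.96. Over all genes tested 16.3% were called lower in ato and 18.4% in wild type. Differences between these subgroups were not tested.

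**Figure D2:**
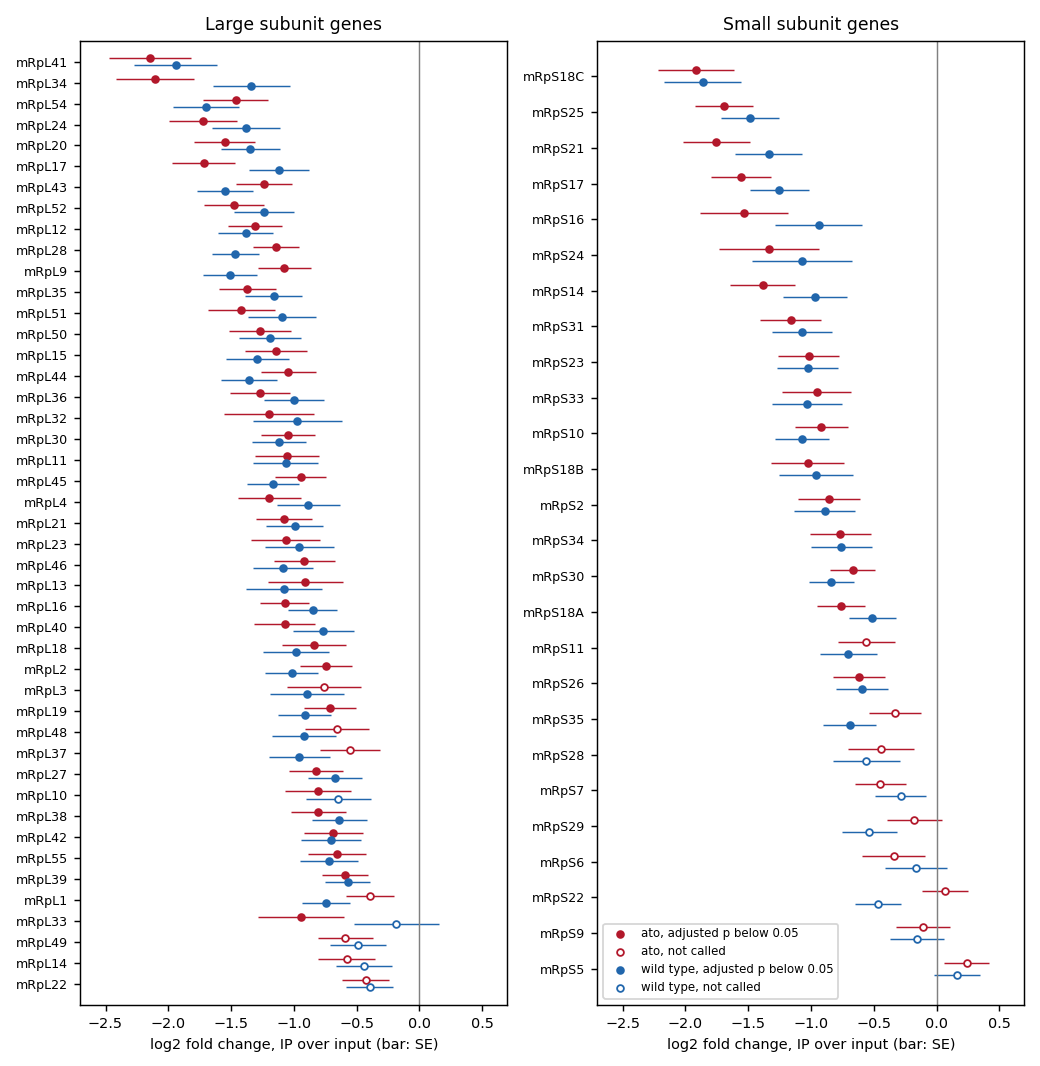
Log2 fold change of IP over input with its standard error for each of the 45 large subunit (left) and 26 small subunit (right) mRp genes tested, ato in red above wild type in blue, with filled points for genes called at an adjusted p below 0.05 by edgeR. All filled points lie left of 0, and mRpL41, mRpL34 and mRpS18C are at the far end while mRpS5 lies right of 0 in both genotypes.

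Among large subunit genes the largest fall was that of mRpL41, a mitochondria-specific protein (dm3, arm 2R, 11104529 to 11105118, minus strand, 1 exon). It had 9.69 and 11.8 CPM in ato IPs, against 54.1 and 41.3 CPM in ato inputs, and 5.31 and 12.6 CPM in wild-type IPs, against 35.4 and 32.3 CPM in wild-type inputs. Every IP was below every input, and wild-type IP 1 was the lowest library of all. The log2 change was -2.15 ± 0.33 (SE) in ato, 4.43-fold lower, and -1.94 ± 0.33 in wild type, 3.84-fold lower, with adjusted p of 0.000179 and 0.000307 by edgeR.

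mRpL34, the counterpart of a small basic protein of the bacterial large subunit, was the shortest mRp gene with 282 bases of exon (dm3, arm 2R, 11986498 to 11986842, plus strand). It had 12.6 and 10.7 CPM in ato IPs, against 59.4 and 41.4 CPM in ato inputs, and 7.96 and 15.7 CPM in wild-type IPs, against 31.6 and 27.7 CPM in wild-type inputs. The groups did not overlap in either genotype, and the ato inputs were the highest pair. Its log2 change was -2.11 ± 0.31 in ato and -1.34 ± 0.31 in wild type (adjusted p 0.000137 and 0.00301 by edgeR).

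mRpL24 and mRpL17 belong to families that sit around the exit of the protein tunnel in bacteria. mRpL24 had 21.3 and 14.8 CPM in ato IPs, against 68.2 and 51.6 CPM in ato inputs, and 13.6 and 20.4 CPM in wild-type IPs, against 49.1 and 39.2 CPM in wild-type inputs. mRpL17 had 10.4 and 14.3 CPM in ato IPs, against 41.6 and 39.8 CPM in ato inputs, and 16.3 and 18.1 CPM in wild-type IPs, against 36.6 and 38.2 CPM in wild-type inputs. All IPs of both genes were below all inputs. The log2 changes were -1.73 ± 0.27 in ato and -1.38 ± 0.27 in wild type for mRpL24, and -1.72 ± 0.25 and -1.12 ± 0.24 for mRpL17, with adjusted p between 0.00012 and 0.00197 by edgeR. mRpL20, whose bacterial counterpart is needed to assemble the large subunit, fell by 1.55 ± 0.24 in ato and by 1.35 ± 0.24 in wild type on the log2 scale.

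mRpL28, mRpL9 and the mitochondria-specific genes mRpL54, mRpL43 and mRpL44 were among the 10 largest falls in wild type. mRpL28 had the smallest adjusted p of the mRp genes, 2.94e-05 by edgeR in wild type, with 61.0 and 63.7 CPM in ato IPs, against 150 and 126 CPM in ato inputs, and 40.4 and 49.3 CPM in wild-type IPs, against 132 and 116 CPM in wild-type inputs. Its libraries separated by kind with a wide gap, and its log2 change was -1.14 ± 0.18 in ato and -1.47 ± 0.19 in wild type. The other 4 fell by 1.07 (mRpL9), 1.46 (mRpL54), 1.24 (mRpL43) and 1.04 (mRpL44) on the log2 scale in ato and by 1.51, 1.70, 1.55 and 1.36 in wild type. mRpL44 has the fold of the double-strand RNA nuclease RNase III.

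**Figure D3:**
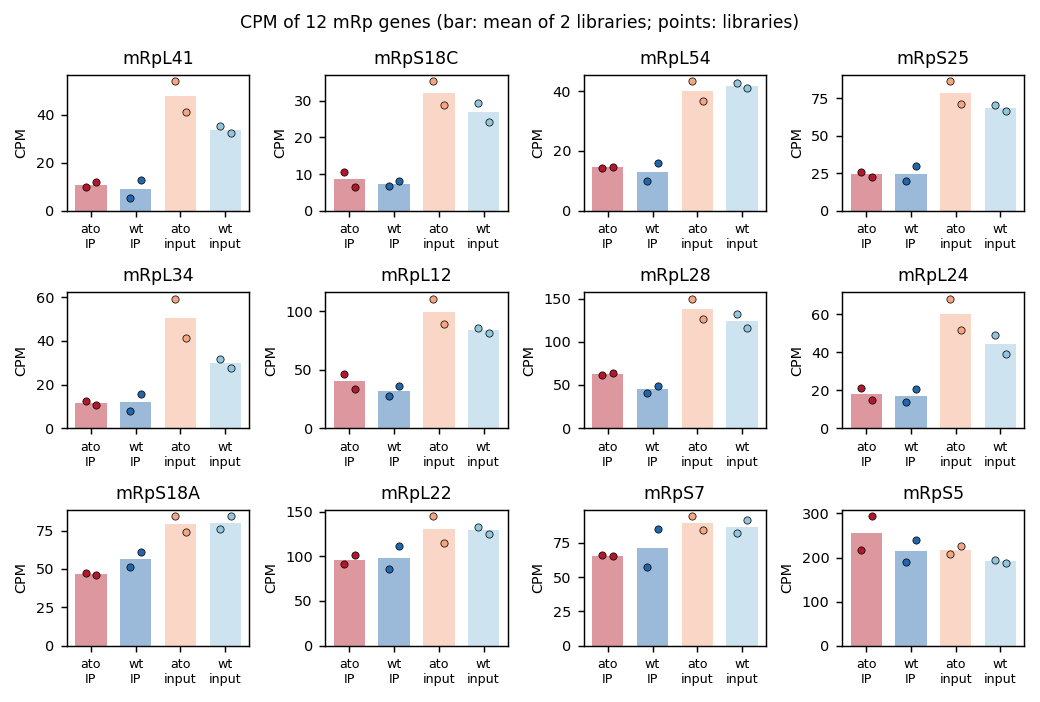
CPM of 12 mRp genes in the 4 groups, from a linear axis that starts at 0; bars are means of 2 libraries and points are the libraries. For mRpL41, mRpS18C, mRpL54, mRpS25, mRpL34, mRpL12, mRpL28 and mRpL24 all IP points lie below all input points, while for mRpS5 the points of IPs and inputs overlap.

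The stalk of the large subunit, which recruits translation factors, is represented by mRpL12 and mRpL10, with mRpL11 at its base. mRpL12, which in mammals also binds the mitochondrial RNA polymerase, had 46.7 and 33.8 CPM in ato IPs, against 111 and 88.8 CPM in ato inputs, and 27.9 and 36.5 CPM in wild-type IPs, against 85.7 and 81.8 CPM in wild-type inputs. It fell by 1.31 ± 0.22 in ato and by 1.38 ± 0.22 in wild type on the log2 scale (adjusted p 0.000348 and 0.000176 by edgeR). mRpL11 fell by 1.05 ± 0.26 in ato and by 1.07 ± 0.26 in wild type, and its call in ato ended without ato input 1 (adjusted p 0.0858 by edgeR). mRpL10 had a log2 change of -0.81 ± 0.26 in ato and -0.65 ± 0.26 in wild type, with adjusted p of 0.0283 and 0.0618 by edgeR. Its ato call ended without ato IP 1, ato IP 2 or ato input 1 (adjusted p 0.107, 0.131 and 0.176), and without wild-type IP 1 the wild-type change passed at an adjusted p of 0.0365. With all libraries kept, the ato call of mRpL10 also ended with the DESeq2 Wald test (adjusted p 0.0695). Its wild-type change passed with the dependence on exon length removed from each library (0.0329 by edgeR). All 3 stalk genes had IPs below inputs in both genotypes.

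mRpL2 and mRpL3 belong to families that surround the peptidyl transferase centre, mRpL4 to one that lines the exit tunnel and mRpL1 to the mobile stalk by the exit site. mRpL2 had 42.3 and 40.0 CPM in ato IPs, against 76.5 and 61.7 CPM in ato inputs, and 25.6 and 33.0 CPM in wild-type IPs, against 60.3 and 57.9 CPM in wild-type inputs. It fell by 0.75 ± 0.21 in ato and by 1.02 ± 0.21 in wild type on the log2 scale (adjusted p 0.0134 and 0.00152 by edgeR), a call that ended in ato without ato IP 1, ato IP 2 or ato input 1 (adjusted p 0.0568, 0.0863 and 0.133). mRpL4 fell by 1.19 ± 0.25 in ato and by 0.88 ± 0.25 in wild type (adjusted p 0.00226 and 0.0123 by edgeR), and its wild-type call ended without wild-type input 1 (0.0926). mRpL3 had a log2 change of -0.76 ± 0.29 in ato (adjusted p 0.0637 by edgeR) and fell by 0.90 ± 0.29 in wild type (0.0256). mRpL1 had one of -0.40 ± 0.19 in ato (adjusted p 0.140 by edgeR) and fell by 0.74 ± 0.19 in wild type (0.00727).

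In wild type, limma-voom with cyclic loess called neither mRpL3 nor mRpL1 (adjusted p 0.0622 and 0.0514). Neither was called by edgeR with 1 run per library (adjusted p 0.0872 and 0.204). Their 2 wild-type calls also ended when single libraries were left out. That of mRpL3 ended without wild-type IP 1, wild-type input 1 or wild-type input 2 (adjusted p 0.190, 0.0945 and 0.0525 by edgeR), and in ato the change passed without ato IP 1, wild-type IP 1, wild-type IP 2 or ato input 2 (0.0473, 0.0207, 0.0289 and 0.0206). That of mRpL1 ended without wild-type IP 1 or wild-type input 1 (adjusted p 0.0578 and 0.0702 by edgeR). The small mitochondria-specific protein mRpL55 fell by 0.66 ± 0.23 in ato and by 0.72 ± 0.23 in wild type on the log2 scale (adjusted p 0.0417 and 0.0229 by edgeR). It was not called in ato by the DESeq2 Wald test (adjusted p 0.1), or in wild type by limma-voom with cyclic loess (0.0777). Its ato call ended without ato IP 1 or 2, ato input 1 or 2, or wild-type input 1 or 2 (adjusted p 0.108, 0.188, 0.196, 0.0589, 0.0637 and 0.0632), and its wild-type call without wild-type IP 1 or wild-type input 1 or 2 (0.132, 0.113 and 0.0907).

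In the small subunit the largest fall was that of mRpS18C (dm3, arm 3R, 26249696 to 26250278, plus strand, 2 exons). It had 10.6 and 6.46 CPM in ato IPs, against 35.4 and 28.9 CPM in ato inputs, and 6.69 and 8.11 CPM in wild-type IPs, against 29.5 and 24.1 CPM in wild-type inputs. No IP reached the level of an input, and the log2 change was -1.91 ± 0.30 in ato and -1.86 ± 0.30 in wild type (adjusted p 0.000252 and 0.000231 by edgeR). Its paralog mRpS18B fell by 1.03 ± 0.29 in ato and by 0.96 ± 0.29 in wild type on the log2 scale (adjusted p 0.0152 and 0.0184 by edgeR), and these calls ended without ato IP 1 or ato input 1 (0.147 and 0.206) and without wild-type IP 1 or wild-type input 2 (0.0742 and 0.115).

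The third paralog, mRpS18A, which mammalian structures place in the large subunit despite its name, had the smallest called fall in wild type. It had 47.2 and 46.2 CPM in ato IPs, against 84.4 and 73.9 CPM in ato inputs, and 51.0 and 61.3 CPM in wild-type IPs, against 75.7 and 84.3 CPM in wild-type inputs. Its IPs were below its inputs in both genotypes, by 0.76 ± 0.19 in ato and 0.51 ± 0.19 in wild type on the log2 scale (adjusted p 0.00688 and 0.0432 by edgeR). The ato call ended without ato input 1 (0.0667), and the wild-type call without wild-type IP 1, wild-type input 1 or wild-type input 2 (0.199, 0.116 and 0.239). With all libraries kept, the wild-type call of mRpS18A also ended with the DESeq2 Wald test (adjusted p 0.0874). The same held for limma-voom with cyclic loess (0.249). Differences among the 3 paralogs were not tested.

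mRpS25, a mitochondria-specific protein, had 25.9 and 22.7 CPM in ato IPs, against 86.6 and 71.1 CPM in ato inputs, and 19.6 and 29.6 CPM in wild-type IPs, against 70.8 and 66.7 CPM in wild-type inputs. It fell by 1.70 ± 0.23 in ato and by 1.49 ± 0.23 in wild type on the log2 scale, with adjusted p of 7.52e-05 and 0.000142 by edgeR, the smallest in ato among the mRp genes. mRpS21, mRpS17 and mRpS16, all of bacterial families, fell by 1.75 ± 0.26, 1.56 ± 0.24 and 1.53 ± 0.35 in ato. mRpS16 lost that call without ato input 1 (adjusted p 0.0528 by edgeR). mRpS30, also placed in the large subunit in mammals, fell by 0.67 ± 0.18 in ato and by 0.84 ± 0.18 in wild type (adjusted p 0.0107 and 0.00193 by edgeR), and its ato call ended without ato IP 1, ato IP 2 or ato input 2 (0.0855, 0.0539 and 0.0585). mRpS34, which stabilises the small subunit in mice, fell by 0.77 ± 0.24 in ato and by 0.76 ± 0.24 in wild type (adjusted p 0.0257 and 0.0236 by edgeR). It was not called in ato by the DESeq2 Wald test (adjusted p 0.0582), or in wild type by limma-voom with cyclic loess (0.103). Its ato call ended without ato IP 1, ato IP 2 or ato input 1 (0.163, 0.0634 and 0.232) and its wild-type call without wild-type IP 1, wild-type IP 2 or wild-type input 1 (0.0530, 0.0889 and 0.213).

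Some small subunit genes were called in neither genotype. mRpS5, whose bacterial counterpart stands at the entry of the mRNA channel, had 218 and 294 CPM in ato IPs, against 207 and 227 CPM in ato inputs, and 189 and 240 CPM in wild-type IPs, against 195 and 188 CPM in wild-type inputs. Its groups overlapped in both genotypes, with a log2 difference of 0.24 ± 0.18 in ato and 0.16 ± 0.18 in wild type (adjusted p 0.345 and 0.511 by edgeR). It was the only mRp gene with a positive difference in both genotypes.

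mRpS7, of the family that organises the head of the small subunit, had 65.8 and 65.2 CPM in ato IPs, against 94.5 and 84.2 CPM in ato inputs, and 57.5 and 85.1 CPM in wild-type IPs, against 82.3 and 91.3 CPM in wild-type inputs. The ato groups did not overlap and the wild-type groups did. Neither log2 difference passed (-0.45 ± 0.20 in ato and -0.29 ± 0.20 in wild type, adjusted p 0.109 and 0.280 by edgeR). With the dependence on exon length removed from each library, the wild-type difference passed at -0.45 (adjusted p 0.0286 by edgeR). In that fit 32.6% of all genes tested were called lower in wild type. mRpS29, known in mammals as the GTP-binding protein DAP3, had 40.9 and 40.4 CPM in ato IPs, against 41.5 and 50.3 CPM in ato inputs, and 29.4 and 32.2 CPM in wild-type IPs, against 50.6 and 38.5 CPM in wild-type inputs. Its log2 difference was -0.18 ± 0.22 in ato and -0.54 ± 0.22 in wild type (adjusted p 0.585 and 0.0675 by edgeR), and the wild-type difference passed without ato input 1 (0.0497). With the dependence on exon length removed, the wild-type difference of mRpS29 passed too, at -0.67 (adjusted p 0.0142 by edgeR). Its IPs were below its inputs in both genotypes, in ato by less than 1 CPM for the nearest pair. mRpL22, the second most abundant mRp gene per length, likewise did not pass, with -0.43 ± 0.19 in ato and -0.40 ± 0.19 in wild type (adjusted p 0.0975 and 0.107 by edgeR).

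Of the 71 mRp genes 53 were called lower in both genotypes, 2 in ato alone (mRpL10 and mRpL33) and 6 in wild type alone (mRpL1, mRpL3, mRpL37, mRpL48, mRpS11 and mRpS35). That is 53 of 55 ato calls and 53 of 59 wild-type calls. With 55 and 59 of 71 genes called, a large overlap was fixed by these numbers. The overlap over all genes tested was not counted. The remaining 10, called in neither, were mRpL14, mRpL22, mRpL49, mRpS5, mRpS6, mRpS7, mRpS9, mRpS22, mRpS28 and mRpS29, 7 of them small subunit genes. These 10 were listed after their values were seen. The genotypes share no library in this comparison, and across the 71 genes the log2 changes in ato and in wild type had a Pearson correlation of 0.82 and a Spearman correlation of 0.83, which describes genes of the same libraries that are not independent replicates.

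The difference of IP over input between the genotypes was tested directly. By edgeR 0 of 71 mRp genes differed, as did 0.0% of all genes tested. Of the mRp genes 0 had an unadjusted p below 0.05, against 436 of all 10224 genes tested, and 0 mRp genes were called by DESeq2 or limma-voom. The largest differences of log2 change, ato minus wild type, were -0.77 ± 0.43 for mRpL34, -0.76 ± 0.48 for mRpL33, -0.60 ± 0.34 for mRpL17, -0.60 ± 0.49 for mRpS16 and 0.54 ± 0.26 for mRpS22, each with an adjusted p of 0.991 by edgeR. mRpL33 had 21.7 and 26.0 CPM in ato IPs, against 56.9 and 35.0 CPM in ato inputs, and 15.7 and 37.7 CPM in wild-type IPs, against 34.8 and 25.5 CPM in wild-type inputs. Its 2 wild-type IPs lay on either side of both wild-type inputs. The median SE of this difference was 0.33 on the log2 scale, which gives a 95% interval of 0.66 on either side.

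Some other genes of mitochondrial gene expression fell as well. Of 43 such genes, 10 were called lower and 0 higher in each genotype. The median log2 change was -0.39 in ato and -0.44 in wild type. These calls were 23.3% of the 43 genes, while 16.3% of all genes tested were called lower in ato and 18.4% in wild type. The calls included tko and bonsai in both genotypes, and a difference of this list from all genes tested was not tested. The 2 mitoribosomal genes in that list were among the largest: tko, the fly counterpart of the decoding-site protein S12, fell by 1.91 ± 0.24 in ato and by 1.60 ± 0.24 in wild type on the log2 scale, and bonsai, the counterpart of S15, fell by 1.25 ± 0.24 and 1.56 ± 0.24. Rlc1, now named mRpL47 and added after names were matched, fell by 0.82 ± 0.23 in ato and by 1.02 ± 0.23 in wild type, and its ato call ended without ato IP 1, ato IP 2 or ato input 1, with an adjusted p by edgeR of up to 0.209 over the alternatives. TFAM, which packages mitochondrial DNA and starts its transcription, fell by 1.20 ± 0.19 and 1.37 ± 0.19 in these genotypes, mtSSB, which binds single-stranded mitochondrial DNA, by 1.38 ± 0.22 and 0.97 ± 0.22, scu, a subunit of mitochondrial RNase P, by 0.99 ± 0.17 and 1.05 ± 0.17, and the elongation factor gene EfTuM by 0.86 ± 0.16 and 0.95 ± 0.16. The initiation factor gene CG13163 (mIF3) fell by 1.31 ± 0.34 and 1.84 ± 0.34, and its ato call ended without ato IP 1 or ato input 2, with an adjusted p by edgeR of up to 0.0783. The remaining 3 calls of each genotype ended when single libraries were left out.

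The proteins that mitochondrial ribosomes serve, the respiratory chain and ATP synthase, have most of their subunits encoded in the nucleus. Of 68 such genes tested 48 fell and 1 rose in ato, with a median log2 change of -0.97, and 45 fell and 1 rose in wild type, with a median of -0.82. Among the cytosolic ribosomal protein genes, which had a median of 757 exon bases, 5 of 85 fell and 6 rose in ato, with a median of 0.10, and 3 fell and 28 rose in wild type, with a median of 0.38. The cytosolic genes that rose were 7.06% of those tested in ato and 32.9% in wild type. Over all genes tested 16.3% were called lower and 11.9% higher in ato, and 18.4% lower and 17.3% higher in wild type. Differences between the lists were not tested.

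**Figure D4:**
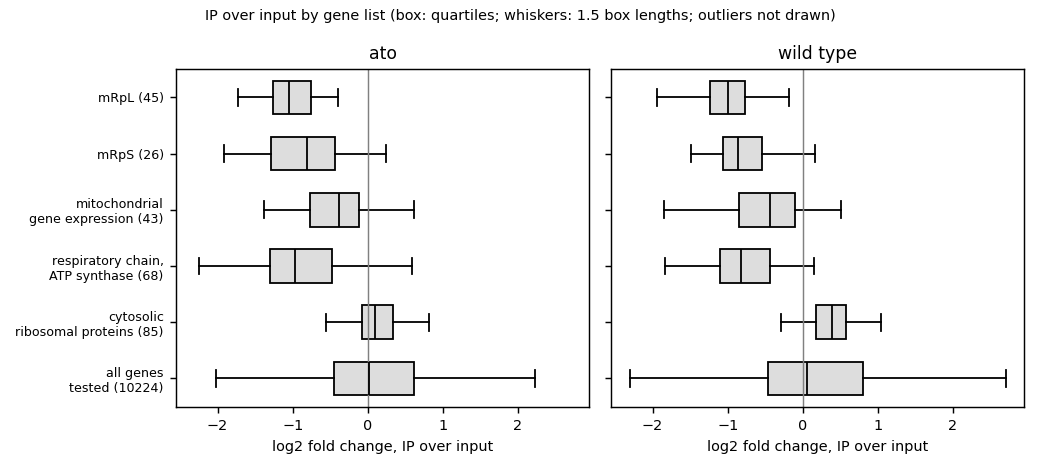
Log2 fold change of IP over input in ato (left) and wild type (right) for the mRpL and mRpS genes, 3 other gene lists and all genes tested, with the number of genes in parentheses; boxes are quartiles with the median, whiskers reach at most 1.5 box lengths and outliers are not drawn. The mRpL, mRpS and respiratory chain boxes lie below 0, with medians of -0.81 to -1.05, and the cytosolic ribosomal proteins lie at medians of 0.10 and 0.38.

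Length and abundance varied with the changes, across genes that share the same 8 libraries. Across the 71 mRp genes the Spearman correlation of the IP-over-input log2 change with exon length was 0.46 in ato and 0.20 in wild type, against 0.29 and 0.18 over all genes tested. With mean CPM it was 0.41 in ato and 0.28 in wild type among the mRp genes, and -0.37 and -0.45 over all genes tested. Of the 36 mRp genes of 282 to 744 bases, 31 fell in ato and 31 in wild type, and of the 35 genes of 747 to 1823 bases, 24 and 28 fell. Among the 33 mRp genes whose exons overlap no other gene, 23 fell in ato and 25 in wild type, with median log2 changes of -0.81 and -0.84. For all genes tested, the shares called lower in the same fit were 16.3% in ato and 18.4% in wild type. With the dependence on exon length removed from each library, 58 mRp genes were called lower in ato and 68 in wild type, where 25.7% and 32.6% of all genes tested were called lower, with median log2 changes of -0.93 and -1.17 for the mRp genes and -0.20 and -0.22 for all genes tested.

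**Figure D5:**
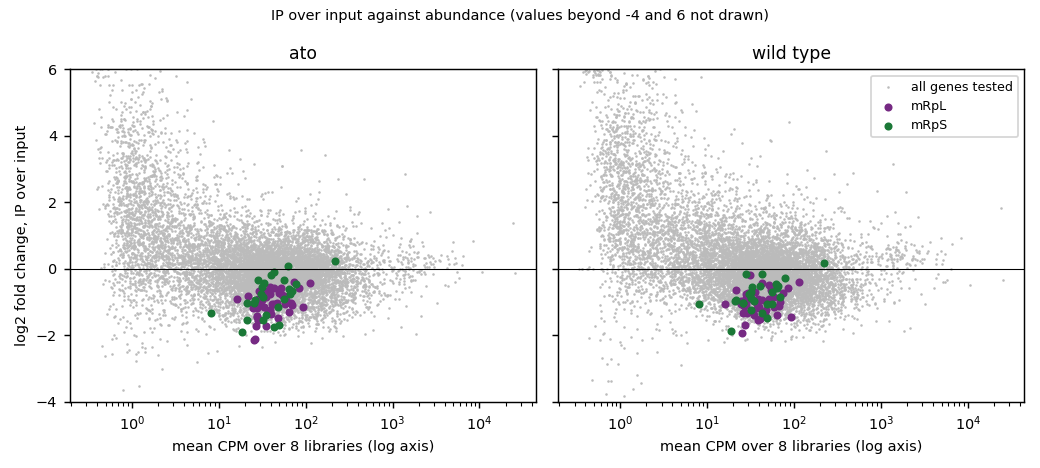
Log2 fold change of IP over input against mean CPM over the 8 libraries (log axis) in ato (left) and wild type (right), with all genes tested in grey, mRpL genes in purple and mRpS genes in green; values beyond -4 and 6 are not drawn. The mRp genes lie at moderate abundance, around a median of 38.6 CPM against 31.0 CPM for all genes tested, and nearly all of them lie below 0.

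Between the genotypes, no mRp gene was called in either kind of RNA. In the IPs 0 of 71 were called by edgeR in either direction, where 2.82% of all genes tested were called higher in ato and 1.88% lower. An unadjusted p below 0.05 was found in 7 of the 71, against 1782 of all 10224 genes tested. DESeq2 and limma-voom also called 0. The median log2 difference, ato over wild type, was 0.23 against -0.03 over all genes tested, and 53 of 71 genes were above 0. Both ato IPs lay above both wild-type IPs in 24 mRp genes, where 21.7% of all genes tested did, and below in 2, where 23.8% did. Without wild-type IP 1, the IP with the lowest mRp share, the median difference was 0.07, with -0.05 over all genes tested, and without wild-type IP 2 it was 0.40, with 0.03 over all genes tested.

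The 5 largest differences between the IPs were all positive. mRpL18 had 25.8 and 34.0 CPM in ato IPs, against 14.4 and 23.2 CPM in wild-type IPs, and mRpL30 had 42.3 and 61.1 CPM in ato IPs, against 34.0 and 35.9 CPM in wild-type IPs. In both genes the ato IPs lay above the wild-type IPs, with log2 differences of 0.67 ± 0.26 and 0.57 ± 0.22 (adjusted p 0.178 and 0.165 by edgeR). mRpS33, mRpL9 and mRpS35 had log2 differences of 0.54 ± 0.28, 0.52 ± 0.21 and 0.51 ± 0.21, with adjusted p of 0.353, 0.208 and 0.209 by edgeR.

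In the inputs 0 of 71 were called by edgeR in either direction, where 4.64% of all genes tested were called higher in ato and 2.34% lower. An unadjusted p below 0.05 was found in 6 of the 71, against 2184 of all 10224 genes tested. DESeq2 and limma-voom again called 0. The median log2 difference was 0.21 against 0.01 over all genes tested, and 60 of 71 genes were above 0. Both ato inputs lay above both wild-type inputs in 35 mRp genes, where 27.6% of all genes tested did, and below in 4, where 26.4% did. Without ato input 1 the median difference was 0.04, with -0.02 over all genes tested, and without ato input 2 it was 0.34, with 0.00 over all genes tested. The muscle markers were higher in the ato inputs too, 8 of 9 called with a median log2 difference of 2.65, and their part in the mRp values was not tested.

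The 5 largest input differences belonged to genes below the median length of the mRp genes. mRpL34 had 59.4 and 41.4 CPM in ato inputs, against 31.6 and 27.7 CPM in wild-type inputs, and mRpS21, a gene of 405 exon bases, had 91.2 and 68.0 CPM in ato inputs, against 50.8 and 48.8 CPM in wild-type inputs. In both genes the ato inputs lay above the wild-type inputs, with log2 differences of 0.76 ± 0.29 and 0.68 ± 0.25 (adjusted p 0.137 and 0.130 by edgeR). When the inputs were fitted alone these 2 genes were called higher, with adjusted p of 0.0475 and 0.0390 by edgeR. In that fit 6.03% of all genes tested were called higher. mRpL36, mRpL40 and mRpL33 had log2 differences of 0.61 ± 0.23, 0.61 ± 0.23 and 0.60 ± 0.33 (adjusted p 0.134, 0.146 and 0.310 by edgeR).

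Across the 71 genes the Spearman correlation of the input difference with exon length was -0.52, against -0.27 over all genes tested. The 36 shorter mRp genes had a median difference of 0.32 and the 35 longer ones of 0.11. With the dependence on exon length removed from each library, the median input difference of the mRp genes was -0.18, against -0.12 over all genes tested, and that between the IPs was 0.05, against -0.06. The positive sign of the mRp median in the inputs did not hold under this correction. Cytosolic ribosomal protein genes had a median input difference of 0.35 with 2 of 85 called higher (2.35%). Respiratory chain and ATP synthase genes had one of 0.30 with 4 of 68 called higher (5.88%). Other genes of mitochondrial gene expression had one of -0.11, with 0 of 43 called by edgeR and 3 at an unadjusted p below 0.05. Of all 10224 genes tested, 4.64% were called higher and 2.34% lower, and 2184 had an unadjusted p below 0.05.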

How the data were processed

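The authors deposited raw counts per gene for 32 samples. TopHat2 2.0.12 and featureCounts 1.4.4 are named in the submitters' processing notes. The command in the deposited file header counts exonic reads of the dm3 build at mapping quality 5 or more, with no option for strand, pairs, multiple mapping or overlapping genes. Low counts of 2 outnumbered those of 3 (19755 against 7744 entries). Low counts can thin out in this way without double counting, so this does not show whether both ends of a fragment were counted. If they were, counting intervals would be too narrow. The 4 columns that share a group and replicate number were taken as runs of 1 library and summed, which the labels do not state. They differed with a chi-square of 1.78 to 1.92 per degree of freedom, and summed replicates of a group with 9.48 to 31.3.

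edgeR 4.0.16 in R 4.3.3 fitted the 4 groups in 1 quasi-likelihood model (filterByExpr, TMM, common biological coefficient of variation 0.203), with Benjamini-Hochberg adjustment over 10224 genes and a threshold of 0.05. Values after ± are SE for log2 changes and SD for levels, with n of 2 per group. Alternatives were DESeq2 1.42.0 size factors and Wald test, limma 3.58.1 voom with and without cyclic loess, other low-count filters, a length correction, fits of the compared groups only, 1 run per library, replicate blocks and leaving out each library. Genes were named by rule: the 10 called genes with the largest change per comparison (the 5 largest where few were called), the extremes of level, and fixed role genes.

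The genes and lists were chosen with earlier results of these data known. All mRp names were current symbols. In the list of mitochondrial gene expression EfTsM, mEFG2, PolG1, LRPPRC2, mtPAP and ThrRS-m were not matched, nor was the marker nSyb. Neuroblast, hemocyte and fat body markers were summed as well. No sequence was used here.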

Additional observations from a re-analysis of the deposited data

How the results depend on the processing

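With single libraries left out, the number of mRp genes called lower in IP over input ranged from 31 to 60 in ato and from 34 to 61 in wild type, and 0 were called higher in IP over input, 0 in either direction between genotypes in either RNA and 0 for the difference between genotypes. Other settings gave, for ato and wild type, 47 and 52 with DESeq2 size factors, 48 and 52 with the DESeq2 Wald test, 55 and 59 with limma-voom, 38 and 45 with cyclic loess (chosen after seeing the data), 59 and 59 with no low-count filter, 54 and 57 with a stricter one, 58 and 68 with the length correction, 55 and 58 with only the groups compared and 37 and 41 with 1 run per library. Over these other settings, 12.4% to 25.7% of all genes tested were called lower in ato and 14.5% to 32.6% in wild type. The share of all genes tested called lower also moved when single libraries were left out. In both genotypes it was lowest and highest without the same library as the number of mRp calls. In these fits the mRp median log2 change was -0.79 to -1.18 in ato, against 0.01 to 0.10 over all genes tested. In wild type it was -0.85 to -1.15, against 0.06 to 0.12. DESeq2 size factors moved the median of all genes to 0.13 in ato and 0.14 in wild type, and the mRp medians to -0.85 and -0.89. The length correction called 1 mRp gene lower between the inputs, where 5.21% of all genes tested were called lower. The fit of only the groups compared called 2 higher between the inputs, where 6.03% of all genes tested were called higher.

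With the replicate number as a block, 55 mRp genes were called lower in ato and 59 in wild type, and with preparations as blocks 59 and 61. The shares of all genes tested called lower were 16.4% and 18.6% with the first block and 18.1% and 20.4% with the second. Deviations of same-numbered IPs and inputs correlated at 0.165 in ato and 0.0963 in wild type, above those of other pairs of groups at -0.0548 to 0.06. These values do not settle whether the numbers pair the samples, and the main model left the samples unpaired.

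Among the gene and comparison pairs covered by the naming rule, signs of uncalled values turned for mRpL36 (-0.000285) and mRpL33 (-0.0537) between the inputs with the length correction, for mRpS5 in wild type with the length correction (-0.0188) and without wild-type IP replicate 2 (-0.0100, with a highest value of 0.31 when a single library was left out), and for mRpS29 in ato with cyclic loess (0.0306); the causes were not tested. Over all 71 mRp genes, the sign turned under at least 1 alternative for 0 called genes in IP over input, for 3 of 16 uncalled genes in ato and 4 of 12 in wild type, and for 38 genes between the IPs, 55 between the inputs and 53 in the difference between genotypes. The common limit is 2 libraries per group, with a median SE of 0.23 to 0.24 on the log2 scale for differences between 2 groups. Counts without strand leave exon overlaps unresolved, and mRpL53 had 0 counts.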
